A study of Mus musculus with 30 samples.

Results

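The comparison described here sets cells kept with 3 µM of cannabidiol (CBD) for 24 h against cells kept with the vehicle for the same time. Its members are 6 of the 30 libraries of the series, taken by their treatment labels alone: A16, A17 and A18 carry the label CBD3_24h, and A28, A29 and A30 carry CTR_24h. All of the cells were mHypoA-2/12, 1 immortalized neuronal line made from hypothalamus of adult mice, so the values speak for this line only. CBD was brought into the medium (DMEM with GlutaMAX) from a solution in DMSO, and the vehicle was the same medium with DMSO at 0.1%, the final DMSO level of every group. The series also holds 0.325, 0.75 and 1.5 µM of CBD at 24 h, and all of these groups at 6 h. Libraries were made with QuantSeq 3′ mRNA-Seq, which reads transcripts at their 3′ ends and is a kit that yields about 1 fragment for each transcript, and the deposited values are numbers of reads per gene. Levels are given as CPM, a gene's reads scaled to the total of its library, after TMM normalization. They are relative, so fewer transcripts per cell and fewer cells of a kind cannot be told apart. The labels do not say whether the 3 libraries of a group came from separate cultures, and p-values then measure the spread between libraries, which may be technical.

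CBD is a plant cannabinoid that does not act as a classical agonist of the cannabinoid receptors. Membrane channels, nuclear receptors, adenosine uptake and enzymes of lipid signalling have been proposed as its targets. The hypothalamus, from which the line derives, controls feeding, temperature, stress hormones and sleep through neurons that release peptides.

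The 3 libraries of 3 µM held 2304492 to 2518615 reads on genes and the 3 vehicle libraries 2942410 to 4162843, so that every CBD library was shallower than every vehicle library. The exact two-sided permutation test of this difference gave p = 0.10, the smallest that 3 against 3 libraries allow. Between 17091 and 17382 genes had a read at 3 µM and between 17858 and 17971 in vehicle. The share of reads outside genes was 21.4% ± 0.487 (SD, n = 3) at 3 µM and 21.4% ± 0.714 (SD, n = 3) in vehicle (exact permutation p = 1.0). Genes of the mitochondrial genome took 7.42%, 8.11% and 7.96% of the reads on genes in A16, A17 and A18 and 8.52%, 8.43% and 9.82% in A28, A29 and A30, again without overlap (exact permutation p = 0.10). A16 and A17 stood apart within the 3 µM group: A16 by its reads on processed pseudogenes, and A17 because leaving it out took the number of genes with an FDR below 0.1 from 1 to 288. Counts are therefore also given without single libraries. The part of the lower depth in the results below was not tested beyond the fits with the read total as a covariate.

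Markers of neurons were thin in all 6 libraries. Of 23 neuronal markers, 7 passed the filter on low counts, among them *Tubb3*, a neuronal tubulin, at 63.9, 59.3 and 41.6 CPM at 3 µM and 55.7, 47.3 and 49.1 CPM in vehicle. *Snap25* of synaptic vesicle fusion and *Rbfox3*, which encodes the nuclear marker NeuN, stayed at or below 1.69 CPM in each library, and *Gad1*, *Slc32a1*, *Nefh*, *Pomc* and *Cartpt* had 0 reads in all 6. The summed level of the 23 markers was 202 to 241 CPM at 3 µM and 190.3 to 199 CPM in vehicle, but single markers went both ways. Of the 7 tested, *Tubb3*, *Eno2*, *Nefl*, *Nefm* and *Gap43* had the higher mean at 3 µM and *Map2* and *Stmn2* the lower. *Nefm* was at 73.1, 22.2 and 41.2 CPM at 3 µM and 25.6, 37.5 and 26.4 CPM in vehicle, with A17 beneath all vehicle libraries. Transcripts common in fibroblasts were abundant: the 10 markers of that list summed to 7135 to 8817 CPM and 7556 to 7984 CPM, and 2 of the 9 tested were lower and 0 higher at an unadjusted p below 0.05. The astrocyte list summed to at most 66.2 CPM. Its *Gfap* and *Aqp4* had 0 reads, but *Gja1* had means of 30.2 CPM at 3 µM and 33.6 CPM in vehicle, and *Slc1a2* 17.4 and 15.9 CPM. The oligodendrocyte list summed to at most 34 CPM, most of it *Cnp* (means 25.3 and 26 CPM), with *Mag*, *Olig1* and *Olig2* at 0 reads. The endothelial list summed to at most 2.99 CPM with *Cdh5* and *Cldn5* at 0 reads. The microglial list summed to 232 to 300.4 CPM and 294 to 336 CPM, most of it *Tmem119*. *Cx3cr1* (means 17.3 and 11.9 CPM) and *Csf1r* (10.4 and 10.7 CPM) were also tested, while *Aif1*, *C1qa* and *Itgam* had 0 reads.

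After 24 h with 3 µM of CBD, *Elp6* was about 3.8-fold higher than in vehicle of the same time. It was the only gene of 12118 tested with an FDR below 0.1 in edgeR's test (0.00825% of the genes tested). Beneath that threshold, 581 genes were higher at 3 µM with an unadjusted p below 0.05 in edgeR's quasi-likelihood test (4.79% of the genes tested) and 529 were lower (4.37%). In 603 genes (4.98%) all 3 CBD libraries lay above all 3 vehicle libraries, and in 662 (5.46%) all lay below. The median log2 fold change over all genes was 0.01. Shares of members reported below are to be read against these backgrounds, and genes other than *Elp6* are given as values that missed the adjusted threshold in edgeR's test. Counts without 1 library, at the same unadjusted p, also have a background. Among the same 12118 genes, 275 were higher and 360 lower without A16, 923 and 942 without A17, and 510 and 523 without A18. They were 242 and 283 without A28, 796 and 659 without A29, and 539 and 510 without A30. With the read total as a covariate they were 248 and 290. DESeq2, run as an alternative, put 12 genes below an FDR of 0.1. Beside *Elp6* these were *Xist*, *Cst3* and *Mylk* (FDR = 0.0235 each), *Rn18s-rs5* (0.0284), *Tob2* and *Gm44292* (0.0341 each), *Hspb1* (0.0565), *Oip5* (0.0637), *Thbs2* (0.083), *Tmbim6* (0.0873) and *Mrps6* (0.0997). At an unadjusted p below 0.05, 12 of 45 collagen and matrix glycoprotein genes were lower (4 without A16) and 6 of 39 mitotic genes were lower (3 with the read total as a covariate). On the other side, 8 of 55 translation factors were higher (2 without A16, 0 without A28), 8 of 71 mitochondrial ribosomal proteins (1 without A16) and 5 of 20 acute-phase genes and chemokines (2 with the read total as a covariate). These shares were not tested as lists.

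**Figure D1:**
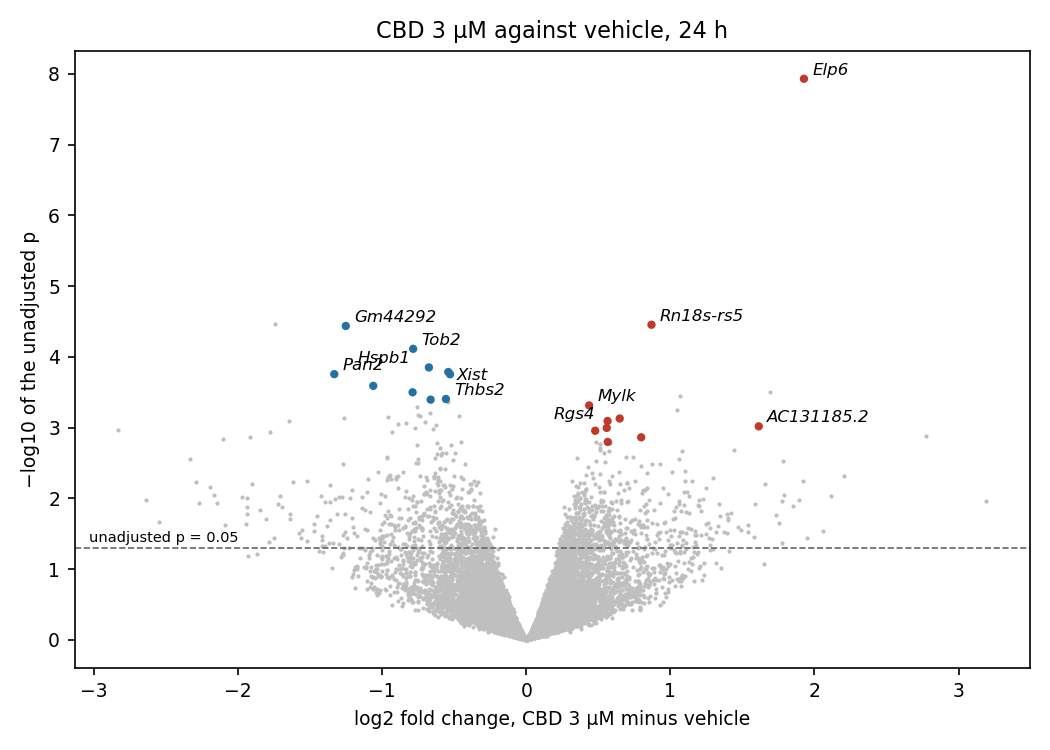
Each point is 1 of the 12118 genes tested, placed by its log2 fold change (x axis, CBD 3 µM minus vehicle at 24 h) and by −log10 of its unadjusted p from edgeR (y axis). Red and blue points are the 10 higher and 10 lower genes with the smallest p among those without overlap between the groups, and the dashed line marks an unadjusted p of 0.05. *Elp6*, at a log2 fold change of 1.93, stands alone at the top.

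*Elp6* encodes a small subunit of Elongator, the complex that modifies the wobble uridine of transfer RNAs and so bears on how fast certain codons are read. Its level was 178, 65.3 and 99.4 CPM in A16, A17 and A18 and 28, 28 and 34.3 CPM in A28, A29 and A30. The groups did not overlap, but the CBD libraries differed from each other by more than the whole spread of the vehicle libraries, with A16 highest. The log2 fold change was 1.93 (SE 0.24, FDR = 1.42e-04, edgeR quasi-likelihood test). Without A16 it was 1.45, and it passed the threshold in each fit that left out 1 library. The spread behind the FDR of 1.42e-04 was pooled over all 15 libraries of 24 h. With only the 6 libraries compared, the log2 fold change was 1.91 (SE 0.28, FDR = 0.05, edgeR). No other gene overlaps *Elp6* in the GENCODE annotation.

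The other doses and the other time place this difference. At 24 h *Elp6* was at 23.1, 25 and 32.8 CPM of reads on genes, without TMM scaling, at 0.325 µM, within the range of the vehicle libraries or just beneath it (28.3, 27.5 and 34). It was at 73.1, 92 and 62.3 at 0.75 µM, at 84.4, 66.2 and 86.5 at 1.5 µM and at 169, 64.7 and 96.3 at 3 µM on the same scale. Each of these 3 groups lay above vehicle in every library, and they overlapped one another. The log2 fold changes against the same vehicle libraries were −0.18, 1.35 and 1.39 at 0.325, 0.75 and 1.5 µM (FDR = 0.901, 0.0162 and 0.016). Set against 1.5 µM directly, 3 µM was 0.54 higher on the log2 scale (SE 0.23), which missed the threshold (FDR = 0.204). At 6 h the vehicle libraries themselves held 177, 165 and 126 on this scale, and 3 µM held 127, 133 and 107. All 15 libraries of 6 h thus lay above all vehicle and 0.325 µM libraries of 24 h, the lowest being 91.3 at 0.325 µM and 6 h. The change at 24 h minus the change at 6 h was 2.27 on the log2 scale (SE 0.31, FDR = 9.70e-05, edgeR). With 3 µM at 24 h, A16 lay within the range of the vehicle libraries of 6 h and A17 and A18 beneath it, and the lowest values of the series were those of vehicle and 0.325 µM at 24 h.

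**Figure D2:**
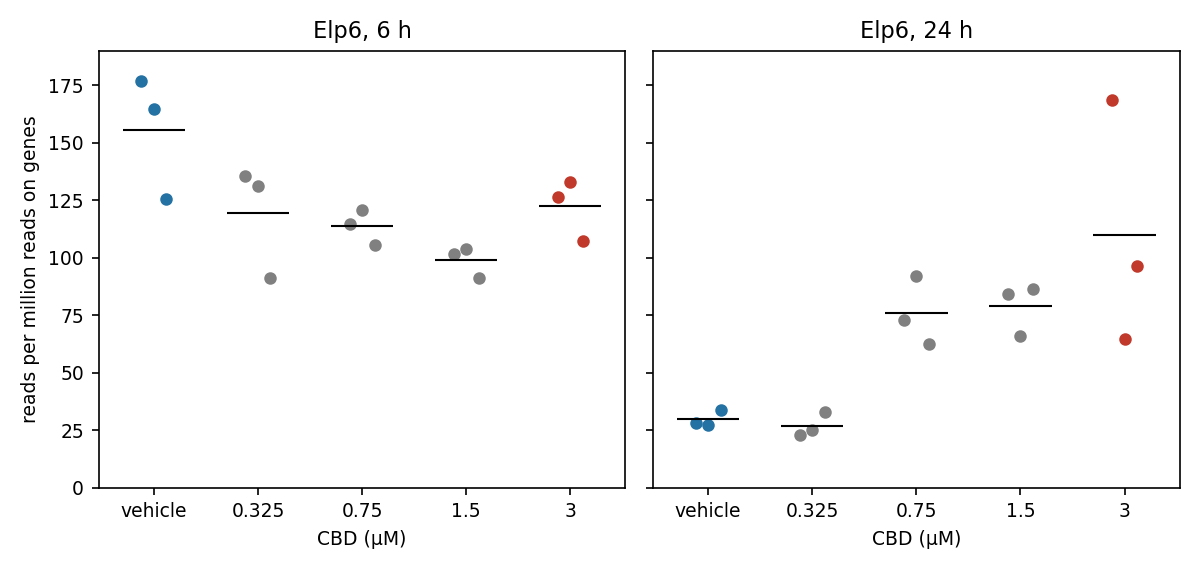
CPM of *Elp6*, as a share of reads on genes without TMM scaling (y axis, from 0), in each of the 30 libraries, by CBD dose in µM (x axis), at 6 h on the left and at 24 h on the right. Points are libraries and lines are means of 3; blue is vehicle, red 3 µM and grey the other doses. At 24 h vehicle and 0.325 µM sit between 23.1 and 34, and at 6 h the lowest library is at 91.3.

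No other gene of Elongator and the wobble uridine pathway passed an FDR of 0.1. *Elp3*, the catalytic subunit, was at 38.4, 64 and 51.9 CPM at 3 µM and 61.4, 65.5 and 48 CPM in vehicle (−0.18, SE 0.17, on the log2 scale). *Elp2*, *Elp4* and *Elp5* had log2 fold changes of −0.00 (SE 0.12), −0.45 (SE 0.56) and −0.10 (SE 0.14). *Elp5* and *Elp4*, which form the accessory subcomplex with *Elp6*, overlapped between the groups. Over the 14 genes of the pathway, all tested, 1 was higher and 1 lower at an unadjusted p below 0.05, and the median log2 fold change was −0.05. The lower gene was *Mocs3*, an enzyme of sulfur transfer to transfer RNA and molybdopterin, at 2.92, 8.53 and 8.95 CPM at 3 µM and 13, 11.8 and 9.95 CPM in vehicle (log2 fold change −0.78, SE 0.34, FDR = 0.511). *Kti12*, an Elongator regulator, was at 2.09, 3.41 and 5.82 CPM at 3 µM and 7.59, 6.08 and 5.83 CPM in vehicle, again without overlap, but its log2 fold change of −0.80 (SE 0.42) had an unadjusted p of 0.0701 in edgeR's fit.

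Among genes with a mean of at least 10 CPM whose CBD libraries all lay above the vehicle libraries, *Rn18s-rs5*, a sequence related to 18S ribosomal RNA, came next to *Elp6*. It was at 207, 99.4 and 152 CPM in A16, A17 and A18 and 70.9, 91.5 and 89.5 CPM in A28, A29 and A30 (log2 fold change 0.87, SE 0.18, FDR = 0.111). A16 was highest and A17 only just above the vehicle range, the same order as for *Elp6*. Reads of a ribosomal RNA copy can come from other copies, so its count is uncertain. *Mylk*, the myosin light chain kinase that sets off contraction, was at 301, 329.8 and 332 CPM in A16, A17 and A18 and 228, 239 and 245 CPM in A28, A29 and A30. The groups were far apart for their spread, and the size was 0.44 (SE 0.11) on the log2 scale (FDR = 0.345). *Rgs4*, which shortens signalling through G-protein-coupled receptors, was at 77.3, 76.4 and 83.7 CPM at 3 µM and 54.8, 48.6 and 56.9 CPM in vehicle (log2 fold change 0.56, SE 0.15, FDR = 0.345). *Pdha1*, the E1 alpha subunit of pyruvate dehydrogenase, was at 121, 92.1 and 115 CPM at 3 µM and 75.4, 66.2 and 81.3 CPM in vehicle (log2 fold change 0.56, SE 0.15, FDR = 0.349).

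*Baz1a*, a subunit of ISWI chromatin remodelling complexes, was at 178, 160.4 and 163 CPM at 3 µM and 114, 121 and 126 CPM in vehicle (0.48, SE 0.13, FDR = 0.352). *Sf3a2*, a splicing factor of the U2 snRNP, was at 71, 69.96 and 86.4 CPM at 3 µM and 47.6, 54 and 52.1 CPM in vehicle (0.57, SE 0.16). *Lrrc40*, a leucine-rich repeat protein, was at 53.5, 54.2 and 62.7 CPM at 3 µM and 40.3, 28.7 and 39.1 CPM in vehicle (0.65, SE 0.17). In these 3 genes the CBD libraries lay close together, A16 and A17 included. The last 2 of the 10 were processed pseudogenes. *Gm11822* was at 84, 50.3 and 52.4 CPM at 3 µM and 33.9, 41.9 and 31.9 CPM in vehicle (0.80, SE 0.22), and *AC131185.2*, which lies within *Armh3* on the same strand, at 49.7, 10.2 and 11.6 CPM at 3 µM and 8.06, 7.76 and 7.55 CPM in vehicle (1.61, SE 0.44). The value of *AC131185.2* rested on A16: without that library its log2 fold change was 0.48.

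On the lower side, among genes with a mean of at least 10 CPM, the smallest p belonged to *Gm44292*, a transcript of unknown role within *Mxd1* on the same strand, at 11.3, 11.9 and 14.8 CPM in A16, A17 and A18 and 41.5, 20.6 and 27.4 CPM in A28, A29 and A30 (log2 fold change −1.25, SE 0.25, FDR = 0.111). *Mxd1* itself had a log2 fold change of 0.00 (SE 0.30). *Tob2*, an antiproliferative protein that brings the deadenylase complex to mRNAs, was at 41.4, 63.1 and 40.7 CPM in A16, A17 and A18 and 84.9, 73.3 and 92.3 CPM in A28, A29 and A30 (log2 fold change −0.78, SE 0.17, FDR = 0.186). *Pan2*, the catalytic subunit of another deadenylase, was at 4.18, 7.25 and 7.16 CPM at 3 µM and 12.8, 15.5 and 18.9 CPM in vehicle (log2 fold change −1.33, SE 0.31, FDR = 0.237). For all 3, every CBD library lay beneath every vehicle library, and A17 was the CBD library nearest to vehicle for *Tob2*. *Hspb1*, the small heat shock protein HSP27, was at 72.3, 81.5 and 67.1 CPM in A16, A17 and A18 and 141, 113 and 97.4 CPM in A28, A29 and A30 (log2 fold change −0.68, SE 0.15, FDR = 0.237). *Xist*, the RNA that coats and silences the inactive X chromosome, was at 124, 167 and 156 CPM in A16, A17 and A18 and 229, 212 and 209 CPM in A28, A29 and A30 (log2 fold change −0.54, SE 0.12, FDR = 0.237). *Tsix* runs antisense to it, and the strand setting of the counting is not given in the sources used here.

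*Cst3*, the secreted inhibitor cystatin C, was at 413, 464 and 418 CPM in A16, A17 and A18 and 704, 566 and 597 CPM in A28, A29 and A30 (log2 fold change −0.53, SE 0.12, FDR = 0.237). It had the largest counts of this set and the groups were well apart. *Thbs2*, a matrix protein that restrains vessel growth, was at 71.4, 116 and 95.8 CPM at 3 µM and 143, 126 and 147 CPM in vehicle (log2 fold change −0.56, SE 0.14, FDR = 0.325). *Cd109*, a surface protein that binds TGF-beta, was at 34.7, 50.3 and 52.4 CPM at 3 µM and 74.2, 60.8 and 82.3 CPM in vehicle (−0.66, SE 0.16), and *Lrfn4*, a synaptic adhesion protein, at 18, 31.1 and 24.6 CPM at 3 µM and 45.7, 41.5 and 39.8 CPM in vehicle (−0.79, SE 0.19). *Gm17334*, which overlaps *Irf1* on the opposite strand, was at 12.5, 10.2 and 19.2 CPM at 3 µM and 31.5, 24.6 and 31.2 CPM in vehicle (−1.06, SE 0.25), while *Irf1* itself had a log2 fold change of −0.51 (SE 0.19). Both of these counts may share reads if strand was not used.

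The study lists 13 genes for this dose and time, which were chosen on these same libraries and so are no independent evidence of a direction. Of those not yet described, *Mrps6*, a protein of the small mitochondrial ribosomal subunit, was at 342, 376 and 338 CPM at 3 µM and 257, 283 and 286 CPM in vehicle (log2 fold change 0.35, SE 0.11, FDR = 0.463). *Oip5*, which helps to load the centromeric histone, was at 2.51, 2.99 and 3.13 CPM at 3 µM and 10.7, 8.1 and 10.3 CPM in vehicle (log2 fold change −1.75, SE 0.35, FDR = 0.111). *Tmbim6*, an inhibitor of BAX-driven cell death in the endoplasmic reticulum, was at 109.9, 126 and 103 CPM at 3 µM and 162, 144 and 162 CPM in vehicle (log2 fold change −0.47, SE 0.12, FDR = 0.345). *Ly6a*, a GPI-anchored surface protein induced by interferon, was at 121, 124 and 107 CPM at 3 µM and 183, 158 and 172 CPM in vehicle (log2 fold change −0.54, SE 0.14, FDR = 0.331). In all 4 the groups did not overlap, and *Oip5* stayed at or below 10.7 CPM in each library.

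Among the gene lists with at least 10 members tested, the largest share of lower members was that of collagens and matrix glycoproteins, the proteins that cells lay down around themselves. Of its 46 members 45 were tested, 0 were higher and 12 lower at an unadjusted p below 0.05 (26.7% against 4.37% of all genes), and 39 had a negative log2 fold change. The median was −0.20, and in 8 all CBD libraries lay beneath all vehicle libraries, in 0 above. None passed an FDR of 0.1 in edgeR's test, and *Thbs2* passed it with DESeq2 (FDR = 0.083). *Col3a1*, a fibrillar collagen, was at 341, 479 and 446 CPM at 3 µM and 622, 509 and 602 CPM in vehicle (log2 fold change −0.45, SE 0.13, FDR = 0.411). *Col1a2*, a chain of type I collagen, was at 1503, 1545 and 1343 CPM at 3 µM and 2147, 1594 and 1984 CPM in vehicle (log2 fold change −0.38, SE 0.13, FDR = 0.507). Its partner chain *Col1a1* was at 2512, 1954 and 2109 CPM at 3 µM and 1912, 1945 and 2239 CPM in vehicle (0.11, SE 0.11), with overlap and in the other direction. *Col6a2* and *Col6a1*, chains of the microfibrillar collagen VI, had log2 fold changes of −0.40 (SE 0.14) and −0.41 (SE 0.15). *Col8a1* was at 381, 456 and 444 CPM at 3 µM and 590.5, 543 and 484 CPM in vehicle (−0.34, SE 0.11).

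The other lower members were *Thbs2*, the basement membrane protein *Nid1* (−0.50, SE 0.20), *Emilin1* (−0.43, SE 0.20), *Fbln5* (−0.33, SE 0.13) and *Fbn1* (−0.32, SE 0.13) of elastic fibres and microfibrils, *Col16a1* (−0.30, SE 0.15) and *Fbln2* (−0.29, SE 0.12). A16 was the lowest library for most of them. The median over the tested members, relative to the vehicle mean on the log2 scale, was −0.49, −0.06 and −0.07 in A16, A17 and A18, and 0.05, −0.09 and 0.04 in A28, A29 and A30. The number of lower members with an unadjusted p below 0.05 was 4 without A16, 19 without A17, 15 without A18, 7 without A28, 13 without A29 and 11 without A30, and 6 with the read total as a covariate. The median stayed negative in each of these fits, between −0.33 and −0.06 over the fits without 1 library. Against the same vehicle libraries the medians at 0.325, 0.75 and 1.5 µM were −0.00, −0.11 and −0.07.

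**Figure D3:**
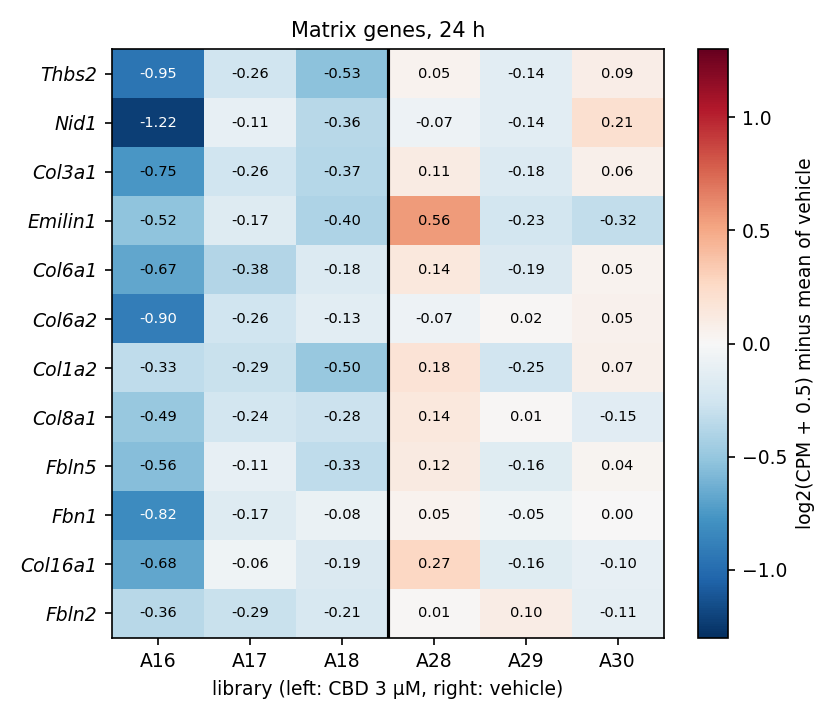
The 12 collagen and matrix glycoprotein genes with an unadjusted p below 0.05 (rows) in the 3 libraries of CBD 3 µM and the 3 of vehicle (columns, divided by the line). Each cell gives log2(CPM + 0.5) minus the mean of the vehicle libraries, blue for lower and red for higher. The values of the CBD libraries are negative, and those of A16 reach −1.22 for *Nid1*.

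Enzymes that act on the matrix were mixed. Of 21 matrix proteases and inhibitors tested, 1 was higher and 3 were lower, with a median of −0.05. Beside *Cst3*, the lower ones were the plasminogen activators *Plat* (0.418, 6.83 and 4.03 CPM at 3 µM and 7.82, 11.1 and 13.7 CPM in vehicle) and *Plau* (3.76, 8.53 and 9.4 CPM at 3 µM and 14, 11.5 and 9.95 CPM in vehicle), each without overlap. The higher one was *Serpine2*, an inhibitor of thrombin and plasminogen activators, at 1797, 799 and 1185 CPM at 3 µM and 604, 1134 and 799 CPM in vehicle (0.58, SE 0.22), with overlap. Of 27 TGF-beta and Smad genes tested, 0 were higher and 3 lower: *Tgfb3* (−0.53, SE 0.23), *Tgfbr2* (−0.46, SE 0.18) and *Ltbp3* (−0.60, SE 0.27). The median of the 27 was 0.02, near that of all genes. With the read total as a covariate 0 were lower, and the number of lower ones ran from 1 without A16 to 6 without A17.

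Genes of mitosis and the kinetochore, which a dividing line expresses, were lower more often than the background. Of 39 tested, 6 were lower and 1 higher at an unadjusted p below 0.05, 9 had a positive log2 fold change, and the median was −0.14. *Cdc20*, an activator of the anaphase-promoting complex, was at 28.4, 33.3 and 36.3 CPM in A16, A17 and A18 and 73, 50.6 and 40.1 CPM in A28, A29 and A30 (log2 fold change −0.76, SE 0.19, FDR = 0.345). *Cenpa*, the centromeric histone, was at 63.9, 76.4 and 45.2 CPM at 3 µM and 119, 86.8 and 83.4 CPM in vehicle (log2 fold change −0.65, SE 0.18, FDR = 0.349), without overlap. *Cdk1*, the kinase that drives entry into mitosis, was at 83.6, 188 and 145 CPM at 3 µM and 302, 167 and 179 CPM in vehicle (−0.64, SE 0.21), with A17 within the vehicle range, and its cyclin *Ccnb1* at 102, 98.1 and 77.4 CPM at 3 µM and 124, 119.8 and 113 CPM in vehicle (−0.37, SE 0.14). *Bub1b* of the spindle checkpoint had a log2 fold change of −0.42 (SE 0.19). The higher one, the kinesin *Kif20a*, was at 3.34, 5.97 and 14.8 CPM at 3 µM and 5.45, 2.03 and 3.43 CPM in vehicle, few reads and an overlap. The number of lower members was 6 without A16, 7 without A17, 5 without A18, 4 without A28, 6 without A29 and 5 without A30, and 3 with the read total as a covariate, where the median was −0.02. Genes of DNA replication had 2 higher and 2 lower of 42 and a median of 0.04.

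Respiratory chain proteins are encoded in part by the mitochondrial genome and in part by the nucleus. All 8 protein genes of the mitochondrial genome that could be tested, of 13, had a negative log2 fold change, with a median of −0.17, and 3 had an unadjusted p below 0.05. Relative to the vehicle mean, their median was −0.25, −0.13 and −0.18 in A16, A17 and A18. It was −0.11, −0.11 and 0.18 in A28, A29 and A30, so A30 stood apart. The median fold change ran from −0.24 to −0.09 without 1 library, and *mt-Nd4* turned to 0.0947 without A30. *mt-Nd1*, a subunit of complex I, was at 6894, 7278 and 6923 CPM at 3 µM and 8386, 7821 and 8280.0 CPM in vehicle (−0.22, SE 0.09), without overlap. *mt-Cytb*, the cytochrome b of complex III, was at 5196, 8545 and 6712 CPM at 3 µM and 9486, 7582 and 10929 CPM in vehicle (−0.45, SE 0.15), with A17 inside the vehicle range, and *mt-Nd3* had at most 16.5 CPM in each library (−1.37, SE 0.55). The medians at 0.325, 0.75 and 1.5 µM, against the same vehicle libraries, were −0.28, −0.25 and −0.17. Of 59 respiratory chain subunits encoded in the nucleus, 1 was higher and 6 were lower, with a median of 0.01. The lower ones were *Ndufa1* (−0.61, SE 0.21), *Ndufa7* (−0.36, SE 0.13), *Ndufa8* (−0.44, SE 0.17) and *Ndufc2* (−0.36, SE 0.14) of complex I, *Uqcrfs1* (−0.37, SE 0.16) of complex III and *Cox7c* (−0.47, SE 0.22) of complex IV. *Ndufa5* of complex I was higher (0.37, SE 0.14). With the read total as a covariate 0 of the 59 were higher and 0 lower. The number of lower ones ran from 2 without A28 to 8 without A17.

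Proteins of the mitochondrial ribosome, which are made from nuclear genes, were higher in 8 and lower in 1 of 71 tested (11.3% higher), with a median of 0.09. Beside *Mrps6*, *Mrpl52* was at 104, 75.9 and 71.6 CPM at 3 µM and 58.5, 61.4 and 66.6 CPM in vehicle (0.43, SE 0.17) and *Mrpl55* at 25.9, 23 and 25.5 CPM at 3 µM and 16.6, 18.9 and 20.2 CPM in vehicle (0.42, SE 0.20), without overlap. *Mrps18a*, *Mrpl30*, *Mrpl18*, *Mrps9* and *Mrpl19* had log2 fold changes of 0.29 to 0.54 and overlapped between the groups. *Mrpl32* was the lower one (−0.59, SE 0.27). The number of higher members was 1 without A16, 9 without A17, 6 without A18, 3 without A28, 9 without A29 and 6 without A30, and 3 with the read total as a covariate.

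Translation factors were higher in 8 and lower in 2 of 55 tested (14.5% higher), with a median of 0.09. *Eef2*, the elongation factor that moves the ribosome along the mRNA, was at 2766, 2666 and 2637 CPM in A16, A17 and A18 and 2048, 2343 and 2343 CPM in A28, A29 and A30 (log2 fold change 0.26, SE 0.10, FDR = 0.507), without overlap. *Eif5b*, which joins the ribosomal subunits, was at 448, 353 and 367 CPM at 3 µM and 254, 341 and 333 CPM in vehicle (0.34, SE 0.13), and *Eif2b5*, a subunit of the exchange factor of eIF2, at 124, 113 and 141 CPM at 3 µM and 83.4, 104 and 113 CPM in vehicle (0.34, SE 0.14). The lower ones were *Eif2s3x* (−0.54, SE 0.25) and *Eif5a* (−0.28, SE 0.14). The number of higher factors was 2 without A16, 15 without A17, 5 without A18, 0 without A28, 12 without A29 and 7 without A30, and 2 with the read total as a covariate. Over all genes tested the number of higher ones also fell, from 581 to 275 without A16 and to 242 without A28. Of 81 cytosolic ribosomal proteins, 9 were higher and 2 lower, with a median of 0.05, and the numbers turned to 1 and 8 without A16. Many genes of this family have near-identical pseudogenes, which makes their unique counts uncertain.

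Proteasome subunits were higher in 5 and lower in 0 of 37 tested, with a median of 0.09. *Psmc5*, an ATPase of the regulatory particle, was at 548, 430.0 and 483 CPM at 3 µM and 292, 422 and 330.0 CPM in vehicle (log2 fold change 0.49, SE 0.14, FDR = 0.411), without overlap. *Psma4*, *Psmd13*, *Psmd4* and *Psmc3* had log2 fold changes of 0.37 (SE 0.14), 0.33 (SE 0.14), 0.30 (SE 0.13) and 0.28 (SE 0.11). The number of higher subunits was 3 without A16, 10 without A17, 6 without A18, 1 without A28, 5 without A29 and 6 without A30, and 1 with the read total as a covariate. Glycolytic and hypoxia-inducible genes were higher in 4 and lower in 0 of 26 (*Aldoa*, *Ldha*, *Pfkl* and *Pkm*), with a median of 0.12. *Pkm*, the last enzyme of glycolysis, was at 1736, 869 and 1086 CPM at 3 µM and 760.2, 1213 and 812 CPM in vehicle (0.41, SE 0.19), high in A16 and within the vehicle range in A17 and A18. The number of higher genes of this list was 1 without A16, 6 without A17, 2 without A18, 0 without A28, 6 without A29 and 1 without A30, and 1 with the read total as a covariate.

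Acute-phase genes and chemokines had the largest share of higher members among the lists with at least 10 tested. Of 20 tested, 5 were higher (25%) and 1 lower, with a median of 0.03. The list also holds intracellular members such as *Nfkbia*. *Saa2*, a serum amyloid A protein, was at 9.19, 15.8 and 11.2 CPM in A16, A17 and A18 and 4.74, 1.69 and 4.46 CPM in A28, A29 and A30 (log2 fold change 1.69, SE 0.41, FDR = 0.32). *Il1rn*, the antagonist of the interleukin-1 receptor, was at 96.5, 131 and 94.5 CPM in A16, A17 and A18 and 83, 74.6 and 78.2 CPM in A28, A29 and A30 (log2 fold change 0.45, SE 0.16, FDR = 0.507), without overlap. *Lcn2*, an iron-binding lipocalin, was at 64.8, 72.1 and 51.9 CPM at 3 µM and 42.2, 53 and 49.1 CPM in vehicle (0.39, SE 0.17), *Hp*, which binds free haemoglobin, at 20.9, 41 and 44.3 CPM at 3 µM and 17.8, 23 and 31.2 CPM in vehicle (0.57, SE 0.24), and *Saa3* had a log2 fold change of 0.51 (SE 0.15), with A16 inside the vehicle range. *Nfkbia*, the inhibitor of NF-kappa-B, was lower at 134, 248 and 217 CPM at 3 µM and 288, 235 and 255 CPM in vehicle (−0.38, SE 0.15). In this list A17 was the library farthest above vehicle, with medians over the members of −0.18, 0.33 and −0.01 in A16, A17 and A18. The number of higher members was 5 without A16, 2 without A17, 4 without A18, 3 without A28, 5 without A29 and 6 without A30, and 2 with the read total as a covariate. Against the same vehicle libraries the list's median was 0.41, 0.32 and 0.17 at 0.325, 0.75 and 1.5 µM.

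Stress genes gave no single direction. Of 24 genes of the integrated stress response, which limits translation under stress, 4 were higher (*Atf5*, *Asns*, *Mthfd2* and *Vldlr*) and 1 lower, with a median of 0.13. *Atf5*, a transcription factor of that response, was at 315, 172 and 298 CPM at 3 µM and 144, 196 and 213 CPM in vehicle (0.51, SE 0.17), and *Phgdh*, the first enzyme of serine synthesis, was the lower one at 18.8, 18.8 and 16.1 CPM at 3 µM and 40.5, 23 and 26.1 CPM in vehicle (−0.75, SE 0.23). Without A16 this list had 0 higher and 3 lower, and without A28 0 and 0. Among 21 cytosolic heat shock genes, the HSP90 genes *Hsp90aa1* (0.35, SE 0.12) and *Hsp90ab1* (0.34, SE 0.13) were higher, and *Hspb1*, *Cryab* (−0.31, SE 0.14) and the regulator *Hsf1* (−0.60, SE 0.23) were lower. Of 23 immediate-early genes 3 were higher: *Fos* at 46.8, 26 and 34 CPM at 3 µM and 15.2, 29 and 14.8 CPM in vehicle (0.87, SE 0.27), the phosphatase gene *Dusp1* at 61, 74.7 and 53.7 CPM at 3 µM and 49.1, 41.2 and 41.2 CPM in vehicle (0.52, SE 0.19) and *Btg2* (0.61, SE 0.24). *Nr4a1* was lower at 1.25, 14.9 and 12.1 CPM at 3 µM and 17.8, 13.8 and 20.2 CPM in vehicle (−0.88, SE 0.38). *Dusp1* alone of these 4 did not overlap.

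Genes of apoptosis stayed near the background. Of 27 BCL-2 family, caspase and related genes tested, 0 were higher and 2 lower, *Tmbim6* and *Bmf* (−1.05, SE 0.48), with a median of −0.01. *Bcl2*, which restrains cell death, had a log2 fold change of −0.14 (SE 0.14) and *Bax*, which promotes it, of 0.11 (SE 0.34). Of 17 p53 targets 3 were higher, *Aen* (0.84, SE 0.36), *Zmat3* (0.39, SE 0.18) and *Btg2*, and 1 was lower, *Plk2* (−0.45, SE 0.22). Without A16 both counts were 0.

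The genes through which CBD has been proposed to act were mostly silent or low. Of 30 endocannabinoid genes and proposed targets, 13 passed the filter, and 0 of them had an unadjusted p below 0.05 in either direction. The cannabinoid receptor genes *Cnr1* and *Cnr2*, *Gpr55*, *Htr1a*, *Trpv1* and *Trpm8* had 0 reads in all 6 libraries, where 3 reads, the limit that a count of 0 allows, are 0.721 to 1.3 CPM by counting error alone. *Slc29a1*, the nucleoside transporter that takes up adenosine, was at 92.8, 140.4 and 123.1 CPM at 3 µM and 155, 142 and 106 CPM in vehicle (−0.19, SE 0.16). *Vdac1*, the mitochondrial anion channel, was at 234, 187 and 197 CPM at 3 µM and 194, 195 and 187 CPM in vehicle (0.10, SE 0.12). *Faah*, which breaks down anandamide, was at 0.836, 2.13 and 1.34 CPM at 3 µM and 2.13, 2.7 and 4.12 CPM in vehicle (−1.01, SE 0.64), and *Dagla*, which makes 2-arachidonoylglycerol, at 2.92, 6.4 and 4.92 CPM at 3 µM and 6.4, 7.09 and 6.86 CPM in vehicle (−0.51, SE 0.40). In both, A17 reached the lowest vehicle library to within rounding. Of 20 feeding peptides and hormone receptors, 8 were tested. *Stat3*, which carries the leptin signal, was lower at 231, 361 and 299 CPM at 3 µM and 477, 345 and 321 CPM in vehicle (−0.36, SE 0.15), with A17 inside the vehicle range, while the leptin receptor *Lepr* was too low to test. *Igf1r* was at 212, 227 and 226 CPM at 3 µM and 237, 251 and 229.8 CPM in vehicle (−0.11, SE 0.12).

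The remaining lists are given by their counts at an unadjusted p below 0.05. Contractile and stress fibre genes had 2 higher and 1 lower of 30, *Mylk* and *Myh9* (0.24, SE 0.11) against *Myl12a* (−0.29, SE 0.12). mRNA decay regulators had 2 higher and 3 lower of 23, *Btg2* and *Pabpc4* (0.40, SE 0.16) against *Tob2*, *Pan2* and *Zfp36l1* (−0.40, SE 0.16). G-protein signalling regulators had 3 higher and 2 lower of 17, with *Rgs4*, *Rgs17* (1.08, SE 0.47) and *Gnb1* (0.29, SE 0.14) higher and *Rgs12* (−0.69, SE 0.26) and *Gnb2* (−0.47, SE 0.19) lower. Autophagy and lysosome genes had 1 higher and 3 lower of 35: *Lamp1*, a lysosomal membrane protein, was at 165, 207 and 147 CPM at 3 µM and 337, 220.5 and 239 CPM in vehicle (−0.62, SE 0.19), *Psap* and *Lgmn* had log2 fold changes of −0.46 (SE 0.20) and −0.80 (SE 0.32), and *Gabarapl1* was the higher one (0.23, SE 0.11). Circadian clock genes had 1 higher and 1 lower of 15. *Clock* (79.8, 75.5 and 77.4 CPM at 3 µM and 47.6, 58.4 and 63.8 CPM in vehicle) and *Per1* (18, 21.3 and 17.5 CPM at 3 µM and 30.1, 25 and 23.7 CPM in vehicle) lay in opposite directions without overlap. NRF2 targets and iron genes had 0 higher and 2 lower of 23, *Ftl1*, the ferritin light chain (−1.27, SE 0.33), and *Gstm1* (−0.36, SE 0.12). *Ftl1* had log2 fold changes of −0.25, −1.17 and −1.12 at 0.325, 0.75 and 1.5 µM, none of which passed (FDR = 0.873, 0.311 and 0.461). Sterol and fatty acid synthesis had 2 higher and 0 lower of 27, *Acaca* (0.36, SE 0.14) and *Scd1* (0.24, SE 0.12).

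Interferon-stimulated genes had 2 higher and 1 lower of 30, *Ifi35* (0.49, SE 0.22) and *Ifitm1* (0.50, SE 0.22) against *Ly6a*, and spliceosomal proteins 1 higher and 3 lower of 37, *Sf3a2* against *Sf3b6* (−0.53, SE 0.19), *Snrnp200* (−0.34, SE 0.13) and *Lsm8* (−0.41, SE 0.20). Abundant non-coding RNAs had 1 higher and 3 lower of 15, *Rn18s-rs5* against *Xist* and the snoRNA hosts *Snhg8* (−0.89, SE 0.31) and *Snhg12* (−0.52, SE 0.22). YAP targets had 1 higher and 0 lower of 13 (*Tead1*, 0.28, SE 0.12), chaperones of the endoplasmic reticulum 0 higher and 1 lower of 19 (*Pdia4*, −0.33, SE 0.16), and neuronal cytoskeleton and progenitor markers 1 higher and 1 lower of 22, the neurofilament gene *Nefm* (73.1, 22.2 and 41.2 CPM at 3 µM and 25.6, 37.5 and 26.4 CPM in vehicle) and the growth-cone gene *Stmn2* (7.1, 14.1 and 11.2 CPM at 3 µM and 19.7, 16.9 and 18.5 CPM in vehicle). *Stmn2* did not overlap between the groups. The 2 metallothionein genes and 10 replication-dependent histone genes tested had no member past this level in edgeR's test, and none passed an FDR of 0.1.

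**Figure D4:**
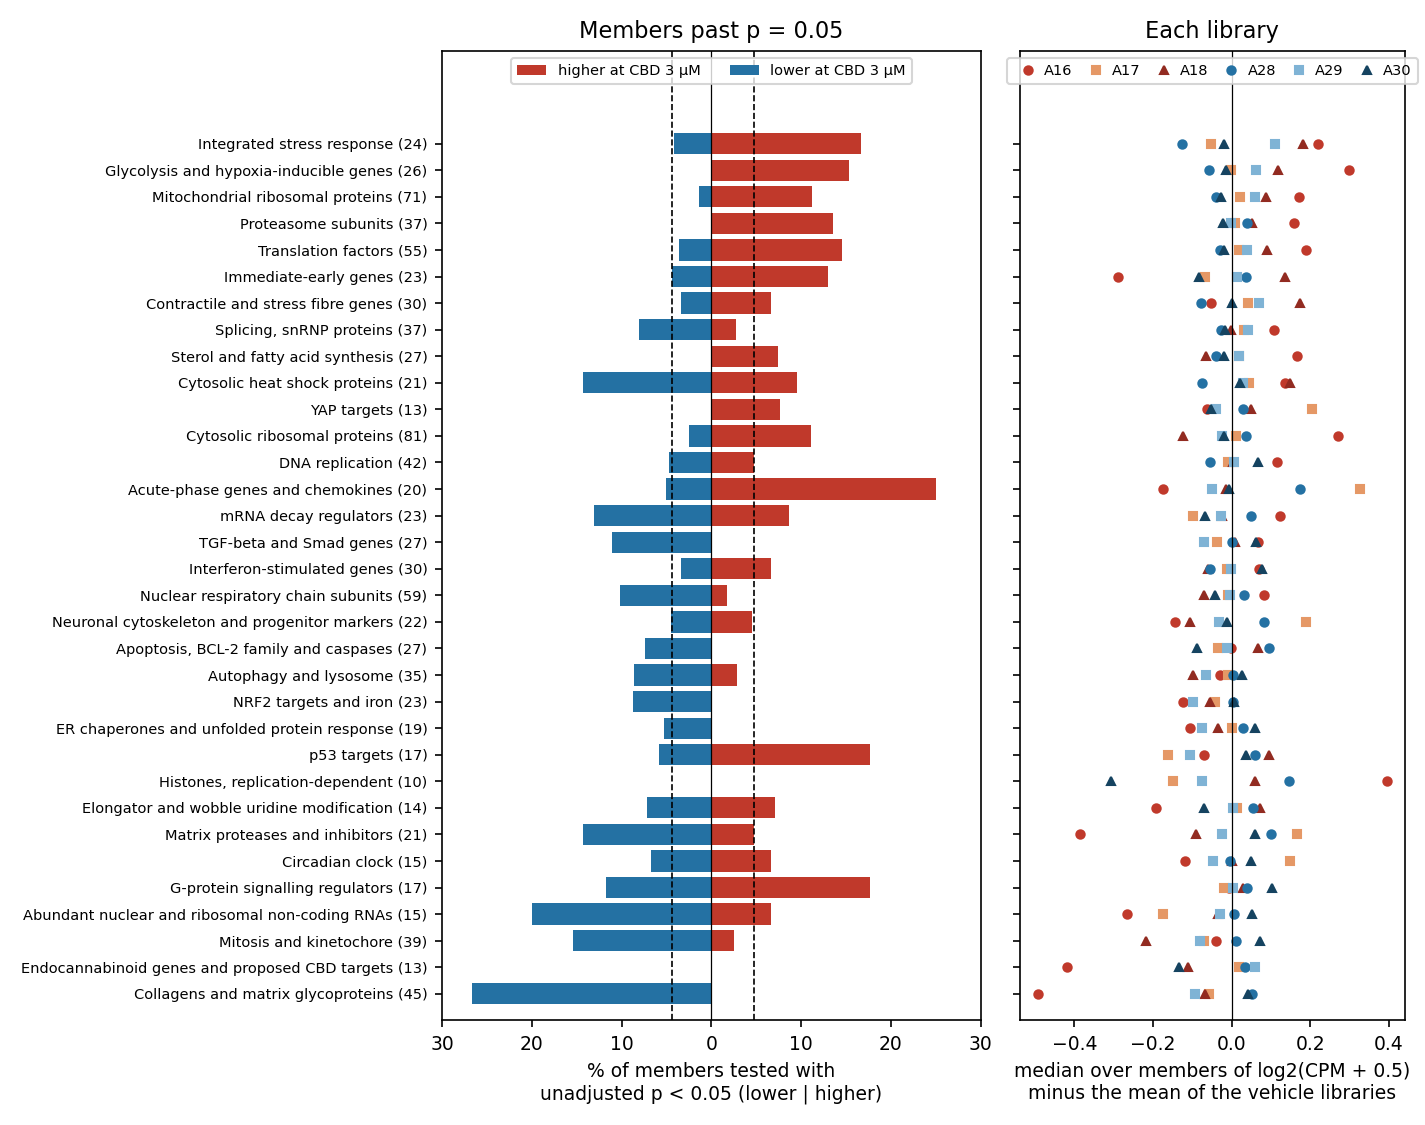
Gene lists with at least 10 members tested (rows, number tested in brackets), ordered by median log2 fold change. The left panel gives the percentage of members with an unadjusted p below 0.05, lower to the left and higher to the right, with dashed lines at the shares over all genes tested (4.37% and 4.79%). The right panel gives, for each library, the median over members of log2(CPM + 0.5) minus the mean of the vehicle libraries: A16 lies apart for matrix genes at −0.49 and A17 for acute-phase genes and chemokines at 0.33.

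Processed pseudogenes, intronless copies that arose from mRNAs and are mostly not translated, were higher as a class. This class was examined after its members had been seen among the genes with the smallest p. Of 519 tested, 112 were higher and 2 lower at an unadjusted p below 0.05 (21.6% and 0.385%), 440 had a positive log2 fold change, and the median was 0.45. Protein coding genes gave 4.04% and 4.62% with a median of −0.00. *Gm44010* was at 96.1, 35 and 53.3 CPM at 3 µM and 23.7, 38.5 and 26.4 CPM in vehicle (log2 fold change 1.07, SE 0.26), and *Gm13498* at 80.2, 35 and 65.4 CPM and 20.9, 44.9 and 22.3 CPM (log2 fold change 1.05, SE 0.27). *Rpl37rt*, a copy of a ribosomal protein gene, was at 316, 168 and 218 CPM and 154, 178 and 153 CPM. Of 84 that are named after a ribosomal protein gene, 23 were higher and 0 lower.

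The pseudogene values were highest in A16, and the excess of higher members was absent without that library. The tested pseudogenes took 3.56% of the reads on genes in A16, 2.13% in A17 and 2.58% in A18, against 2.03%, 2.5% and 2.2% in A28, A29 and A30, and between 1.66% and 2.25% in the 9 libraries of the lower doses. A16 was the highest of the 6 libraries for 372 of the 519, a count that was not made over all genes. In all CBD libraries 29 of the 519 were higher, a share near the 4.98% of all genes tested. In all CBD libraries 5 were lower, a share beneath the 5.46% of all genes. A16 also had 25.1 alignments to more than 1 place for each 100 reads placed once, where the other 14 libraries of 24 h had 21.2 to 22.8. Without A16, 14 pseudogenes were higher and 14 lower with a median of 0.06. Without A17 they were 214 and 2, without A28 35 and 5, and with the read total as a covariate 23 and 3. At 0.325, 0.75 and 1.5 µM, against the same vehicle libraries, the medians were −0.27, −0.11 and −0.14. The part of read placement in these values was not tested.

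**Figure D5:**
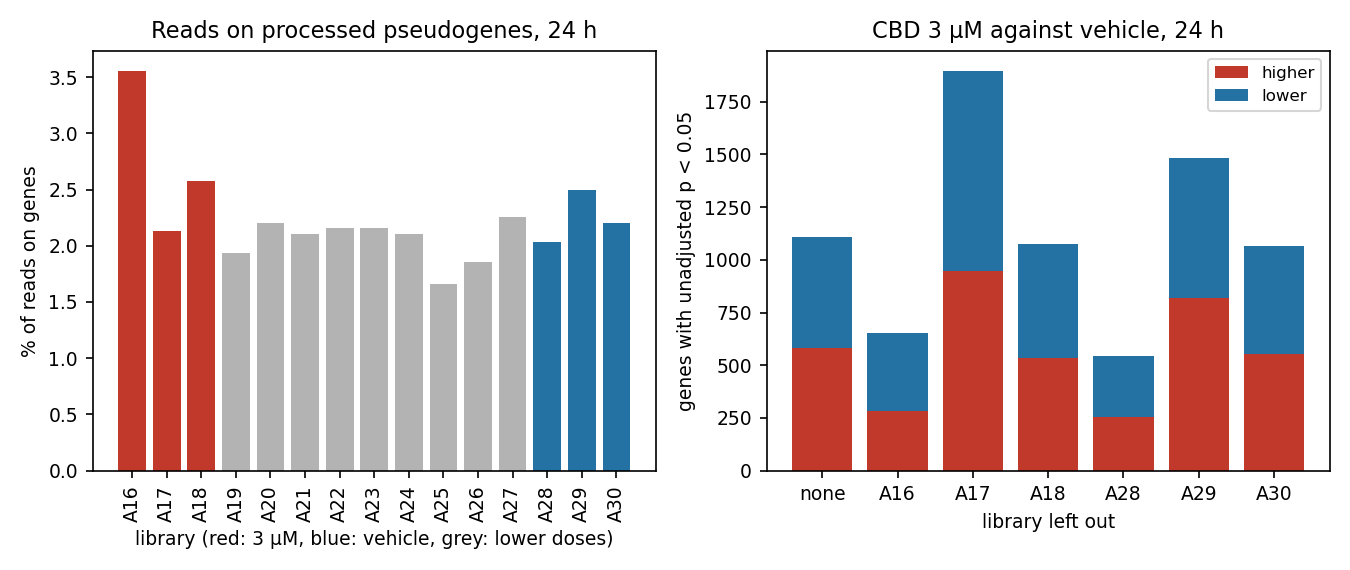
The left panel gives the percentage of reads on genes that fell on the 519 processed pseudogenes tested, for each of the 15 libraries of 24 h (red 3 µM, blue vehicle, grey lower doses). A16 stands at 3.56%. The right panel gives the number of genes with an unadjusted p below 0.05, higher (red) and lower (blue) at 3 µM, in the fit with no library left out and in the fits without each of the 6 libraries compared: it runs from 544 without A28 to 1897 without A17.

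The number of genes that passed an FDR of 0.1 turned on A17. Without A17, 134 genes were higher (1.07% of 12582 tested) and 154 lower (1.22%). In 77 of these 288 A17 itself lay beyond all vehicle libraries on the side of A16 and A18, in 173 it lay within the vehicle range, and in 38 beyond it on the other side. The 288 were picked by a fit without A17, which in part sets these counts. The same counts were not made over all genes tested. After *Elp6*, *Rn18s-rs5* and *Tob2*, the smallest p belonged to *Tns2*, a focal adhesion protein, at 8.36, 35.8 and 16.6 CPM at 3 µM and 39.3, 26 and 42.9 CPM in vehicle (log2 fold change −1.55 without A17 and −0.84 with it). *Sem1*, a small proteasome subunit, was at 49.3, 126 and 69.8 CPM at 3 µM and 151, 97.6 and 130.4 CPM in vehicle (−1.10 and −0.63). *Efemp1*, a fibulin of the matrix, was at 63.9, 142 and 96.2 CPM at 3 µM and 190.1, 127 and 193 CPM in vehicle (−1.10 and −0.76). *Thbs2* was at −0.74 and −0.56, and the other 3 of the 10 were the pseudogenes *Gm44010*, *Gm6136* and *Gm13498*. Without A16 the count was 2, *Elp6* and *Rex1bd*, and without A29 it was 3, *Elp6*, *Gm44292* and *Gm13498*. Neither library was left out of the values above, since the labels give no ground to prefer one over the other.

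The nearest dose at the same time was 1.5 µM. Against it, 258 genes were higher at 3 µM (2.13% of those tested) and 216 lower (1.78%) at an FDR below 0.1, far more than against vehicle. This count depended on single libraries and on the fit. It was 0 without A16, 1692 without A17, 3 without A18, 1 without A19 and 121 without A21, and it was also 0 in a fit of the 6 libraries of these groups alone and when the percentage of reads that fell outside genes entered as a covariate. That percentage was 20.8% to 21.7% at 3 µM and 19.3% to 20.4% at 1.5 µM, without overlap. Its part in the count was not tested further. *Oip5* had the smallest p, −2.21 on the log2 scale (SE 0.35, FDR = 0.0101), beside −1.75 against vehicle. *Rn18s-rs5* differed by 0.92, *Hspb1* by −0.74 and *Pan2* by −1.46. Of the 519 pseudogenes, 59 were among the higher genes and 2 among the lower, and of the 45 matrix genes 0 in either.

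The effect of 3 µM at 24 h was also set against its effect at 6 h in a fit of all 30 libraries. At 6 h vehicle (A1, A2 and A3) held 1839621, 1919498 and 3574833 reads on genes, and 3 µM held 3239116, 2287249 and 2363117. A1 and A2 were thus shallower than every CBD library of 6 h, while at 24 h every vehicle library was deeper. This contrast was not fitted with the read total as a covariate, so the part of depth in it was not tested. The difference between the 2 changes passed an FDR of 0.1 in 14 of 12790 genes (0.109%). *Elp6* had the smallest p, as given above. *Xist* had log2 fold changes of 0.50 at 6 h and −0.55 at 24 h, a difference of −1.05 (SE 0.20, FDR = 0.0339). For *Rn18s-rs5* the values were −0.60 and 0.86 (FDR = 0.0711). The matrix gene *Fbln5* had log2 fold changes of 0.58 at 6 h and −0.33 at 24 h (FDR = 0.0342), and the median of the matrix list was 0.17 at 6 h beside −0.20 at 24 h.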

How the data were processed

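Single-end reads of 3′ mRNA-Seq libraries (QuantSeq FWD) were mapped by the authors to GRCm39 with STAR 2.7.5c after a check with FastQC 0.11.9, and HTSeq 1.99.2 counted them on genes of Ensembl annotation. The deposited files hold these raw read counts per gene, 1 file per library, with reads outside genes, ambiguous reads and multiple alignments in rows of their own, which were kept out of library sizes and tests. The authors tested with DESeq2. The strand setting of the counting is not given in the sources used here. Symbols were taken for 51948 of 56941 gene IDs from GENCODE M21, and gene classes and overlaps from the same annotation. No coordinates are given, since it is built on another assembly.

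Groups were taken from the treatment labels. The 15 libraries of 24 h were fitted together with edgeR 4.0.16 in R 4.3.3 (filterByExpr on the 5 groups, TMM, quasi-likelihood F-test, Benjamini-Hochberg over all genes tested, FDR below 0.1), with a mean per group, and the effect of 24 h minus that of 6 h in a fit of all 30. DESeq2 1.42.0, RLE normalization, other filters, fewer libraries, covariates and each library left out in turn were alternatives. The fits with the log2 read total as a covariate were chosen after seeing the data. The comparison, the 36 gene lists and the rule for named genes were chosen with earlier results of these data known. Named genes are those with an FDR below 0.1, the 10 higher and 10 lower with the smallest p, a mean of at least 10 CPM and no overlap, the 13 genes the study lists, list members with an unadjusted p below 0.05 or among the 4 smallest of their list, the 10 with the smallest p without A17, and the Elongator genes. Lists were described by counts and medians without a test. The tests were checked on simulated data. Those counts were drawn independently for each gene and library, so the check does not bear on deviations of whole libraries. A few single-gene results are not reported here. Counting error is larger in the shallower CBD libraries.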

Additional observations from a re-analysis of the deposited data

Results flagged for a closer look

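For 14 genes the change with 3 µM of CBD differed between 24 h and 6 h by the interaction test of edgeR (FDR below 0.1), 4 of them higher and 10 lower at 24 h, and 13 are given here, each as its log2 fold change against vehicle at the 2 times. The 4 with the higher change at 24 h were *Elp6* (−0.36 at 6 h, 1.92 at 24 h, difference 2.27, SE 0.31), *Rn18s-rs5* (−0.60 at 6 h, 0.86 at 24 h, difference 1.46, SE 0.32), the stress-inducible *Gadd45g* (−0.96 at 6 h, 0.37 at 24 h, difference 1.33, SE 0.29) and *Plin2*, a coat protein of lipid droplets (−0.90 at 6 h, 0.12 at 24 h, difference 1.02, SE 0.23). Those given with the lower change at 24 h were *Fign* (0.99 at 6 h, −0.40 at 24 h, difference −1.40, SE 0.27), *Xist* (0.50 at 6 h, −0.55 at 24 h, difference −1.05, SE 0.20), the transcription factor *Maf* (0.78 at 6 h, −0.44 at 24 h, difference −1.22, SE 0.24), *Itga1*, a collagen-binding integrin (1.73 at 6 h, −0.21 at 24 h, difference −1.94, SE 0.39) and *Tmem98* (1.20 at 6 h, −0.27 at 24 h, difference −1.48, SE 0.30). They also included *Fbln5* of elastic fibres (0.58 at 6 h, −0.33 at 24 h, difference −0.91, SE 0.19), *Gstm1*, a glutathione transferase (0.54 at 6 h, −0.37 at 24 h, difference −0.91, SE 0.19), *Adamts7*, a matrix protease (1.51 at 6 h, −0.40 at 24 h, difference −1.91, SE 0.43) and *Pld3* (0.71 at 6 h, −0.41 at 24 h, difference −1.12, SE 0.26).

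*Elp6* passed in each of the 12 fits that left out 1 of the libraries compared, *Fign* in 10, *Itga1* and *Fbln5* in 9, *Xist* and *Maf* in 8, *Tmem98* and *Adamts7* in 7, *Gstm1* and *Gadd45g* in 6, and *Rn18s-rs5*, *Plin2* and *Pld3* in 4. The vehicle library A3 of 6 h moved the count most, to 318 without it. The part of read depth in these differences was not tested.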

How the results depend on the processing

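*Elp6* kept its direction and its FDR below 0.1 with DESeq2, RLE normalization, both other filters, the mitochondrial genes left out, only the 6 libraries, either covariate in the fit of 15 libraries and each library left out (log2 fold change 1.45 to 2.20). With only the 6 libraries and the read total as a covariate it was 2.02 and no longer passed (FDR = 1 in edgeR). That fit called 0 genes, with 189 at an unadjusted p below 0.05, and turned the sign of 34 of the other 199 named genes in it. The count against vehicle, 1 gene, was 12 with DESeq2, 116 when low counts were not filtered and 1 to 288 without 1 library. The count at an unadjusted p below 0.05, 1110, was 596 with only the 6 libraries, 538 with the read total as a covariate, 189 with both of these, and 544 to 1897 without 1 library. Genes without overlap numbered 1265, 1266 with RLE, 1887 with no filter and 955 with at least 10 reads in every library. Against 1.5 µM, 474 genes became 780 with no filter on low counts, 0 with only the 6 libraries, 0 with the percentage of reads falling outside genes added as a covariate (1600 and 1467 at an unadjusted p below 0.05, and 674 at the FDR with DESeq2) and 0 to 1692 without 1 library. The 14 genes of the time difference became 56 with DESeq2, 142 with no filter, 1 with only the 12 libraries, 25 with that percentage as a covariate and 1 to 318 without 1 library. The difference in the share of reads outside genes, −0.0093 percentage points, ran from −0.275 to 0.397 without 1 library. Leaving that fit out, of 2789 values of other named genes under the alternatives, 2657 kept direction and side, 115 came to pass and 17 turned sign. Without 1 library these were *Ctu1* (−0.389 to 0.139), *Elp2* (−0.0647 to 0.0802), *Mt2* (−0.0618 to 0.131), *Rpl39l* (−0.0693 to 0.86), *Socs3* (−0.517 to 0.0434), *Trmt112* (−0.534 to 0.372) and *mt-Nd4* (−0.263 to 0.0947). *Elp2* was also 4.82e-04 with RLE, 4.56e-04 with the share outside genes and 0.0142 with the read total as a covariate, under which *Elp4* was 0.353 and *Mt2* −0.0628. Of the medians of the lists, 483 moved by less than the spread between libraries and 20 by more. The causes were not tested. No paired analysis was possible because the groups share no replicate numbers. Depth limits genes of a few CPM, where 3 reads are 0.721 to 1.3 CPM in these 6 libraries.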
